A study of Homo sapiens with 4 samples.

Results

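The genes described here make, activate, burn and store fatty acids. They are 38 genes chosen by symbol in a table of gene levels, and all 38 were found among its 57820 genes. The rule used no measured value, though earlier results of these data were known when the members were chosen. They fall into 13 genes of synthesis, 4 of activation, 13 of oxidation, CPT1C included, and 8 of storage, lipolysis and uptake.

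The libraries came from 786-0, an established human renal carcinoma line. In the shGLUD1 group (2 libraries) the cells carried a short hairpin RNA against GLUD1, which encodes mitochondrial glutamate dehydrogenase, and in the shNT group (2 libraries) they carried a hairpin labelled shNT, given as the control. Both groups had been kept in DMEM with 10% serum and were starved of amino acids for 12 h before RNA was taken, so no fed cells entered the comparison. The labels name 1 hairpin condition against GLUD1 and do not say whether the replicates were separate cultures, so the p-values cover library-to-library spread only, part or all of which may be technical. In bulk RNA, fewer cells expressing a gene and less of its RNA per cell cannot be told apart.

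Fatty acid synthesis starts in the cytosol, where citrate or acetate is turned into acetyl-CoA, carboxylated to malonyl-CoA and built into palmitate, which is then elongated and desaturated. Acyl-CoA synthetases activate free fatty acids. Acyl-CoA is either esterified into triglyceride and kept in lipid droplets, or passed through the carnitine shuttle into mitochondria and oxidised, with electrons leaving through the electron transfer flavoprotein. Clear cell renal carcinomas are known for cytoplasm rich in lipid droplets.

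Levels are given in TPM, a transcript's share of its library corrected for length, which the authors scaled to the same total in every library, and changes as the log2 fold change of TPM + 1, shGLUD1 minus shNT, which understates the change of low genes. On that scale the middle gene of the 12524 tested had a change of 0.63. Each change is therefore given on TPM and again with the libraries divided by median-ratio factors, so that the middle gene has a change near 0; "rescaled" means that value. "Rose" and "fell" refer to TPM and to an adjusted p under 0.05 in limma. TPM keep no read totals, so depth is unknown. The library labelled shGLUD1 replicate 2 held more GLUD1 (19.8 TPM) than either control library, whereas shGLUD1 replicate 1 held 13.5 TPM, against 18.1 and 17.4 TPM in shNT. On TPM the GLUD1 change was -0.11 (SE 0.19, limma adjusted p = 0.631), and rescaled it was -0.83 (SE 0.15, limma adjusted p = 0.00233), so each direction below is drawn from the label. The renal transcription factor PAX8 was present in all 4 libraries (5.18 and 7.48 TPM in shGLUD1, against 8.07 and 8.75 TPM in shNT; -0.38, adjusted p = 0.155, and rescaled -1.05, 0.0014), while PAX2 was at or below 0.12 TPM and LHX1 was listed at 0. Of 13 renal epithelium and renal carcinoma markers 6 were tested; CA9, CA12, VIM and KRT8 rose (1.53, 2.08, 1.86 and 0.53) and KRT18 fell (-0.64), and rescaled KRT8 did not pass (-0.22). Their summed level, mostly VIM, was 3049 and 3916 TPM in shGLUD1 against 1007 and 974 TPM in shNT. Of 7 blood cell markers only CD68 passed the filter (209 and 241 TPM in shGLUD1, against 159 and 146 TPM in shNT). It rose by 0.56 and did not pass rescaled (-0.20). Of 5 endothelium markers 0 passed the filter. Of 7 fibroblast and adipocyte markers 4 were tested and COL1A1, COL1A2 and PDGFRB rose. Rescaled, only COL1A2 passed (0.66), and LUM passed on neither scale (0.19, rescaled -0.48). The summed level of these markers was 63.5 and 66.3 TPM in shGLUD1 against 28.6 and 28.1 TPM in shNT, and LEP was listed at 0. Beside these marker counts, 56.7% of all genes tested rose and 7.77% fell. The part of these markers in the results below was not tested.

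Of the 36 members tested, 28 rose on TPM (77.8%), 0 fell and 8 did not pass; of all genes tested 56.7% rose and 7.77% fell. The log2 fold change was below 0 for PLIN2, ELOVL5, ELOVL6 and DGAT1, none of which passed; at an adjusted p under 0.05 PLIN2 was lower in the fit with the replicate block, with trends in transcript length and GC content removed, or without shNT replicate 2. Rescaled, 10 members were higher and 9 lower (27.8% and 25.0%), where 23.2% of all genes were higher and 27.9% lower. Under quantile normalization 12 members were higher and 5 lower, beside 23.5% and 22.1% of all genes, and with length and GC trends removed 28 were higher and 1 lower, beside 60.2% and 6.09%. On TPM 31 members were higher and 1 lower with no overlap between groups, beside 69.9% and 13.5% of all genes. The median member lay 0.16 log2 units above the median of all genes. Without shGLUD1 replicate 2, the library with the higher GLUD1 level, the median change of all genes on TPM was 0.54, against 0.63 with every library. Class medians relative to all genes were then 0.19 (synthesis), 0.50 (activation), 0.08 (oxidation) and 0.02 (storage). The other members, ACSL5 and CD36, lay below the filter of a mean of 1 TPM.

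The summed level of the members was 2159 and 2353 TPM in shGLUD1 and 1504 and 1444 TPM in shNT. Oxidation genes held most of it, with 1350 and 1448 TPM in shGLUD1 against 992 and 967 TPM in shNT. Activation genes held the least, with 29.7 and 41.2 TPM in shGLUD1 against 13.2 and 13.8 TPM in shNT. Relative to all genes, the median log2 fold change was 0.60 for the 3 activation genes tested, 0.19 for synthesis, 0.10 for oxidation and 0.05 for storage. With trends in transcript length and GC content removed the activation value was 0.30. A longer transcript went with a larger change across all genes (Pearson r = 0.38 across genes, which are not independent replicates), and the tested activation genes had a median transcript length of 5333 nt, against 2905 nt for all genes; what part length has in their value was not tested beyond that correction.

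**Figure D1:**
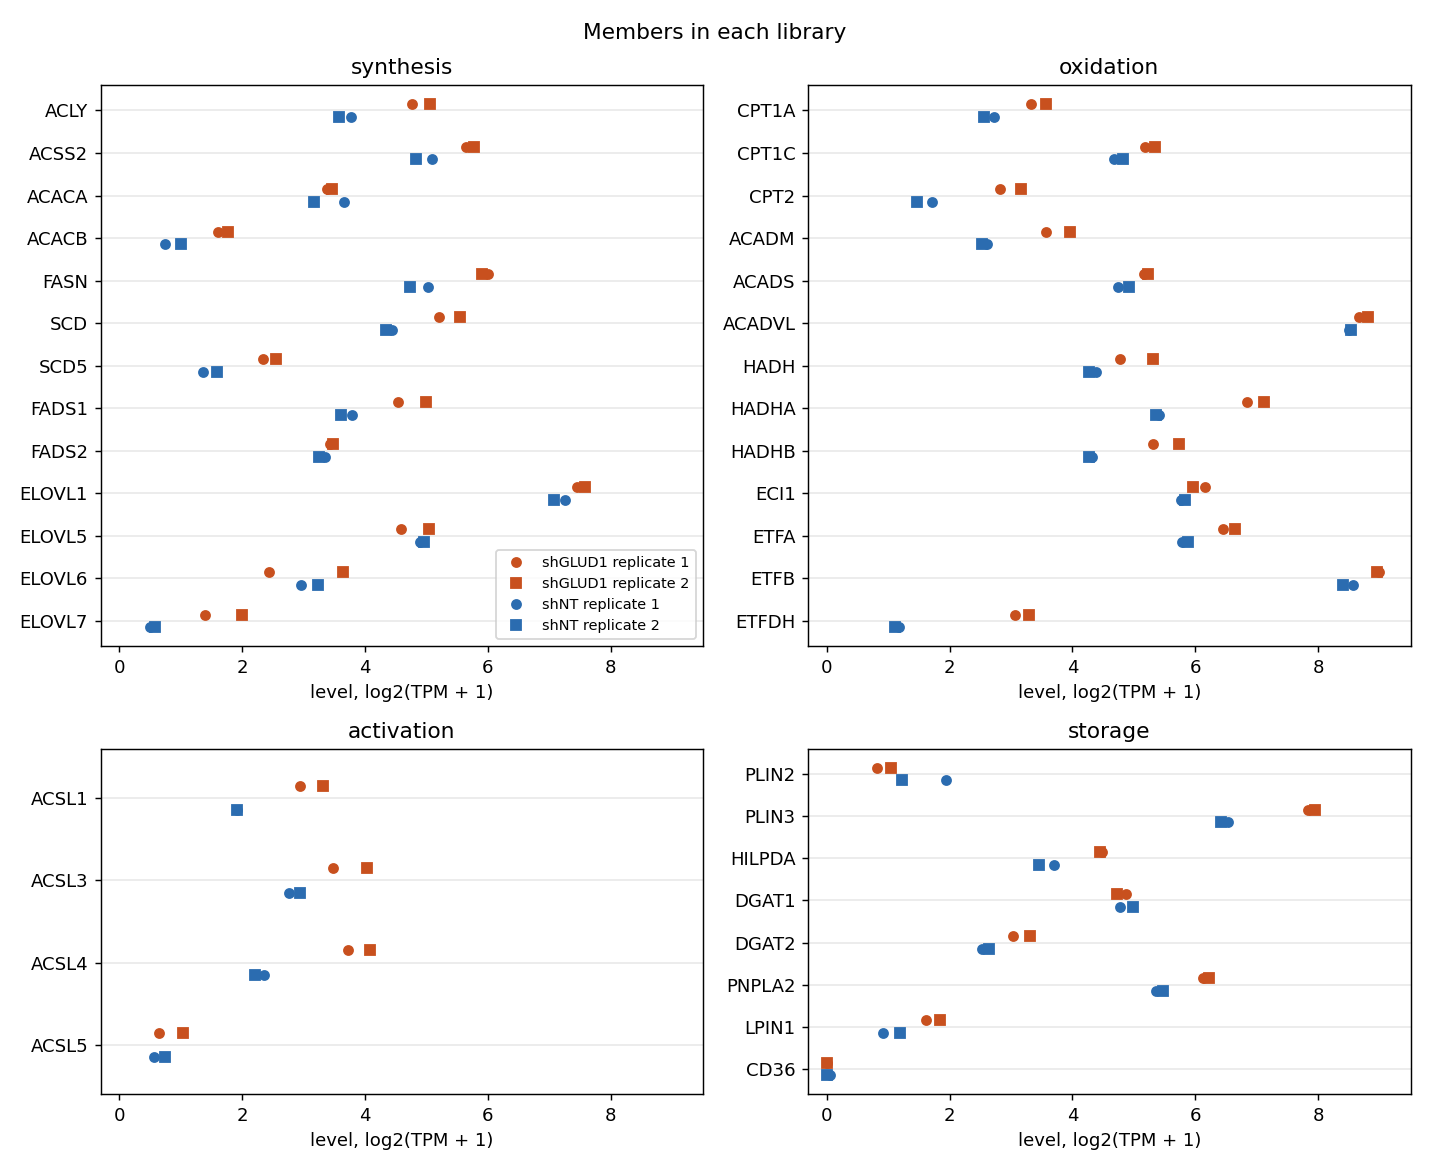
Level of each of the 38 members, as log2(TPM + 1) on the horizontal axis, in the 2 shGLUD1 libraries (orange) and the 2 shNT libraries (blue), by role; circles are replicate 1 and squares replicate 2. PLIN3 sits apart by group at 226 and 245 TPM against 91.7 and 84.4 TPM, ETFDH by a wide gap at low level, and CD36 is at or next to 0 throughout.

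In the synthesis class 9 of 13 genes rose and 4 did not pass (69.2% higher, beside 56.7% of all genes). Rescaled, 2 were higher and 4 lower (15.4% and 30.8%, beside 23.2% and 27.9% of all genes). The first steps were among those that rose. ACLY, which cleaves cytosolic citrate to acetyl-CoA, stood at 26.3 and 32.4 TPM in shGLUD1, against 12.6 and 10.9 TPM in shNT. The groups did not overlap, and the change was 1.25 (SE 0.17, limma adjusted p = 0.000127; rescaled 0.52, SE 0.14, adjusted p = 0.0128). ACLY was the only gene of the path from acetyl-CoA to palmitate that was higher after rescaling, and that call was lost without shGLUD1 replicate 2 (0.49, adjusted p = 0.0733) or shNT replicate 2 (0.42, adjusted p = 0.0806).

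FASN, the multi-domain enzyme that builds palmitate, was at 63.2 and 59.1 TPM in shGLUD1, against 31.5 and 25.5 TPM in shNT. It rose by 1.08 (SE 0.14, limma adjusted p = 9.42e-05) and did not pass rescaled (0.34, adjusted p = 0.094). Under quantile normalization FASN was higher (0.60, limma adjusted p = 0.0131). ACSS2, which makes acetyl-CoA from acetate, was at 49.2 and 53.9 TPM in shGLUD1, against 32.9 and 27.5 TPM in shNT. It rose by 0.76 on TPM and was level with the typical gene after rescaling (0.01).

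Between these steps lie the acetyl-CoA carboxylases. ACACA, the main cytosolic form, had 9.45 and 10.1 TPM in shGLUD1 and 11.7 and 7.98 TPM in shNT; the groups overlapped, and the 2 shNT libraries lay on either side of both shGLUD1 libraries. Its change was 0.01 on TPM (SE 0.21, adjusted p = 0.964) and -0.68 rescaled (SE 0.19, adjusted p = 0.0188). The rescaled call was lost without shGLUD1 replicate 1 (-0.72, adjusted p = 0.0715), shGLUD1 replicate 2 (-0.61, 0.118) or shNT replicate 1 (-0.43, 0.137). ACACB, the form at the mitochondrial outer membrane whose malonyl-CoA restrains carnitine palmitoyltransferase, was at 2.04 and 2.41 TPM in shGLUD1, against 0.68 and 1 TPM in shNT. It rose by 0.81 (SE 0.25, adjusted p = 0.0151) but passed neither without shNT replicate 1 (0.69, 0.131), nor in the unfiltered fit (0.0613), nor with length and GC trends removed (0.47, 0.0966), nor rescaled (0.37, 0.179). The ratio of ACACB to ACACA within a library, which no scaling of a library can alter, was 0.216 and 0.239 in shGLUD1, against 0.0582 and 0.125 in shNT. Such ratios are given as a description, with no test.

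Of 4 desaturases 3 rose, where 56.7% of all genes tested rose. SCD, the stearoyl-CoA desaturase that makes oleate, was at 35.8 and 45.9 TPM in shGLUD1, against 20.8 and 19.2 TPM in shNT, and SCD5, its paralogue, was at 4.07 and 4.88 TPM against 1.57 and 2.03 TPM. Both rose (0.99 and 0.97), neither passed rescaled (0.25 and 0.41), and SCD5 lost its call without shNT replicate 1 (0.85, adjusted p = 0.0707). Their ratio moved little, with SCD5 at 0.114 and 0.106 of SCD in shGLUD1 and at 0.0755 and 0.106 in shNT.

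FADS1 and FADS2 are the desaturases of polyunsaturated fatty acid synthesis and are neighbours on chromosome 11, on opposite strands (GRCh38, 61799625 to 61829318 and 61792980 to 61867354). FADS1 was at 22.2 and 30.7 TPM in shGLUD1, against 12.8 and 11.3 TPM in shNT, and rose by 1.06 (SE 0.18, adjusted p = 0.0006). FADS2 was at 9.84 and 10.2 TPM in shGLUD1, against 9.17 and 8.55 TPM in shNT, a change of 0.16 that did not pass. Rescaled, FADS1 was at 0.34, which did not pass, and FADS2 was lower by -0.53 (adjusted p = 0.0189), a call lost without shGLUD1 replicate 2 (-0.44, 0.108) or shNT replicate 1 (-0.49, 0.0906). The FADS2 to FADS1 ratio was 0.444 and 0.331 in shGLUD1, below the 0.719 and 0.759 of shNT. The annotated exons of the neighbours share 490 bases, and the labels do not say that strand was used in counting, so reads there cannot be told apart.

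Elongases ranged from the largest synthesis change after ACLY to the lowest rescaled value of the class. ELOVL7, an elongase of very long chains, was at 1.63 and 3.01 TPM in shGLUD1, against 0.42 and 0.5 TPM in shNT. It rose by 1.15 (SE 0.28, adjusted p = 0.00405) and was higher rescaled (0.76, adjusted p = 0.0265), the rescaled call not without shGLUD1 replicate 2 (0.52, 0.13) or shNT replicate 1 (0.75, 0.0614). ELOVL1, the most abundant elongase here, was at 174 and 190 TPM in shGLUD1, against 151 and 134 TPM in shNT. It passed in opposite directions: it rose by 0.35 on TPM (SE 0.11, adjusted p = 0.0131) and was lower by -0.40 rescaled (SE 0.12, adjusted p = 0.0205). Both calls were fragile, the first lost without shGLUD1 replicate 2 (0.29, 0.077), without shNT replicate 2 (0.27, 0.167), in the unfiltered fit (0.0624) or with no variance trend (0.0962), and the second without shGLUD1 replicate 2 (-0.35, 0.0634) or shNT replicate 1 (-0.32, 0.188).

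ELOVL5, which extends polyunsaturated fatty acids, had 22.9 and 31.9 TPM in shGLUD1 and 28.7 and 30.1 TPM in shNT, with overlapping groups. It did not pass on TPM (-0.11, adjusted p = 0.565) and was lower rescaled (-0.85, SE 0.13, adjusted p = 0.00121), also with each library left out in turn. ELOVL6, which takes palmitate to stearate, had 4.43 and 11.4 TPM in shGLUD1 and 6.79 and 8.4 TPM in shNT. The shGLUD1 libraries lay on either side of both shNT libraries, and neither value passed (-0.06 on TPM, -0.73 rescaled, adjusted p = 0.064).

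The acyl-CoA synthetase genes of the activation class, all ACSL genes, had the highest class median. All 3 that were tested rose, where 56.7% of all genes did. Rescaled, 2 were higher (66.7%, beside 23.2% of all genes). ACSL4, which prefers arachidonate and other polyunsaturated fatty acids, was at 12.2 and 15.9 TPM in shGLUD1, against 4.15 and 3.64 TPM in shNT. The mean was 3.60 times that of shNT, with a change of 1.61 (SE 0.21, limma adjusted p = 0.000111) and a rescaled value of 0.94 (SE 0.16, adjusted p = 0.00192) that passed with each library left out in turn.

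ACSL1, a synthetase of the mitochondrial outer membrane and endoplasmic reticulum, was at 6.71 and 9.02 TPM in shGLUD1, against 2.76 and 2.76 TPM in shNT. It rose by 1.23 (SE 0.23, adjusted p = 0.00101). Its rescaled value of 0.60 (adjusted p = 0.021) passed with all libraries but with none left out (0.51 to 0.69, adjusted p 0.0516 to 0.123). ACSL3, a synthetase found on the endoplasmic reticulum and nascent lipid droplets, was at 10.2 and 15.3 TPM in shGLUD1, against 5.79 and 6.69 TPM in shNT, and rose by 0.90 (adjusted p = 0.00476; 0.0558 in the unfiltered fit); rescaled it did not pass (0.22, 0.316).

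The order of these synthetases changed between the groups. ACSL4 was at 1.19 and 1.04 times the level of ACSL3 in shGLUD1, against 0.717 and 0.544 times in shNT, so the more abundant of the pair was ACSL4 in both shGLUD1 libraries and ACSL3 in both shNT libraries. ACSL5, a mitochondrial synthetase below the filter, was at 0.57 and 1.05 TPM in shGLUD1 and 0.48 and 0.68 TPM in shNT. It amounted to 0.0849 and 0.116 of ACSL1 in shGLUD1, against 0.174 and 0.246 in shNT.

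**Figure D2:**
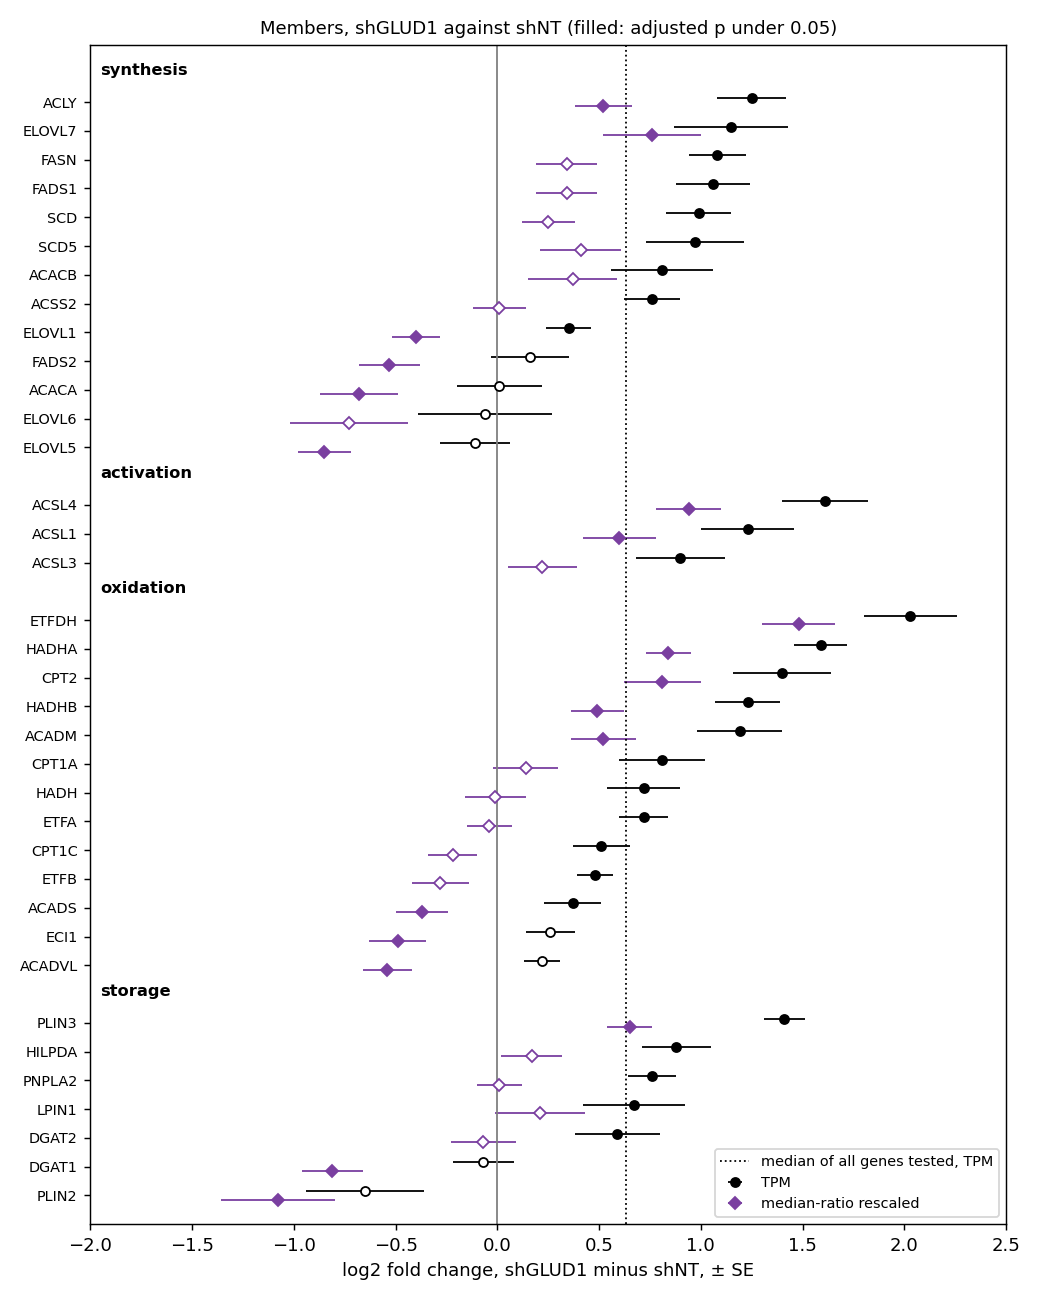
Log2 fold change of each tested member (shGLUD1 minus shNT, bars are SE) on TPM (black circles) and after median-ratio rescaling (purple diamonds), filled where the adjusted p was under 0.05; the dotted line is the median of all genes on TPM, 0.63. ETFDH has the largest change on both scales (2.03 and 1.48) and PLIN2 the lowest (-0.65 and -1.08).

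In the oxidation class 11 of 13 genes rose and 2, ACADVL and ECI1, did not pass (84.6% higher, beside 56.7% of all genes). Rescaled, 5 were higher (ETFDH, HADHA, CPT2, ACADM and HADHB) and 3 lower (ACADVL, ECI1 and ACADS). These were 38.5% and 23.1%, beside 23.2% and 27.9% of all genes. Under quantile normalization 6 were higher and 0 lower (46.2% higher, beside 23.5% of all genes higher and 22.1% lower). There ACADVL was at 0.20, ECI1 at -0.15 and ACADS at -0.19, none passing. On TPM the groups did not overlap in any of the 13, all higher in shGLUD1, where 69.9% of all genes were higher without overlap; rescaled, 6 were higher and 5 lower without overlap, against 39.0% and 39.2% of all genes.

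The carnitine shuttle carries long acyl chains into mitochondria. CPT1A, the outer membrane transferase that commits them to oxidation, was at 9.01 and 10.9 TPM in shGLUD1, against 5.62 and 4.87 TPM in shNT, and rose by 0.81 (SE 0.21, adjusted p = 0.00596; 0.72 and 0.0757 without shNT replicate 2), and did not pass rescaled (0.14, 0.495). CPT2, the inner membrane transferase that hands the chain back to coenzyme A, was at 6.1 and 7.96 TPM in shGLUD1, against 2.28 and 1.77 TPM in shNT. CPT2 rose by 1.40 (SE 0.24, adjusted p = 0.000559) and was higher rescaled (0.81, SE 0.19, adjusted p = 0.00864; 0.72 and 0.0684 without shGLUD1 replicate 2). Its exons share 1151 bases with an antisense RNA, AL606760.2, listed at 0.36 and 0.89 TPM in shGLUD1 and 1.75 and 0.92 TPM in shNT. They also share 99 bases with C1orf123 on the other strand, at 49.9 and 55.6 TPM in shGLUD1 and 49.0 and 49.6 TPM in shNT. The split of reads among these genes is uncertain.

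CPT1C, a form of the endoplasmic reticulum best known from neurons, was the more abundant CPT1 gene in every library, at 35.2 and 39.5 TPM in shGLUD1 and 24.5 and 27.1 TPM in shNT. It rose by 0.51 (adjusted p = 0.00774; 0.44 and 0.0937 without shNT replicate 1) and was at -0.22 rescaled, which did not pass. Relative to CPT1A it stood at 3.90 and 3.63 in shGLUD1, below the 4.36 and 5.57 of shNT.

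Acyl-CoA dehydrogenases take the first oxidation step and are named by chain length. ACADM, for medium chains, was at 10.9 and 14.5 TPM in shGLUD1, against 5.12 and 4.76 TPM in shNT, and rose by 1.19 (SE 0.21, adjusted p = 0.000654). Its rescaled value of 0.52 (adjusted p = 0.0256) did not pass with any single library left out (0.43 to 0.61, adjusted p 0.0534 to 0.145). Exons of ACADM share 157 bases with RABGGTB on the same strand, so the split of reads between them is uncertain. RABGGTB was at 26.8 and 37.1 TPM in shGLUD1, against 20.1 and 26.1 TPM in shNT. ACADVL, for very long chains and the most abundant of these dehydrogenases, was at 404 and 445 TPM in shGLUD1, against 360.5 and 369 TPM in shNT. That change of 0.22 did not pass (adjusted p = 0.0581), though it did with length and GC trends removed (0.36, 0.0101) or without shGLUD1 replicate 1 (0.29), and ACADVL was lower rescaled (-0.54, adjusted p = 0.00533), a call lost without shNT replicate 1 (-0.56, 0.0554) or shNT replicate 2 (-0.53, 0.0571).

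ACADS, for short chains, was at 34.7 and 36.7 TPM in shGLUD1, against 25.7 and 29.3 TPM in shNT, and like ELOVL1 passed in opposite directions (0.37, adjusted p = 0.0366, on TPM and -0.37, adjusted p = 0.0372, rescaled). Neither call was firm. The TPM call was lost with any library left out (0.27 to 0.46, adjusted p 0.0523 to 0.317), in the unfiltered fit (0.0723) and with no variance trend (0.0854), and the rescaled one without shGLUD1 replicate 1 (-0.43, 0.0569), shGLUD1 replicate 2 (-0.30, 0.149) or shNT replicate 2 (-0.29, 0.203).

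The later steps for long chains are run by the mitochondrial trifunctional protein, whose alpha and beta subunits are HADHA and HADHB. HADHA was at 113 and 137 TPM in shGLUD1, against 41.6 and 40.1 TPM in shNT, 3.07 times the shNT mean. It rose by 1.59 (SE 0.13, limma adjusted p = 6.37e-06) and was higher rescaled (0.84, SE 0.11, adjusted p = 0.000565), also with each library left out. HADHB was at 38.9 and 52.4 TPM in shGLUD1, against 19.0 and 18.3 TPM in shNT. It rose by 1.23 (SE 0.16, adjusted p = 0.000108), and its rescaled value of 0.49 (adjusted p = 0.0126) was lost without shGLUD1 replicate 2 (0.40, 0.0705) or shNT replicate 2 (0.47, 0.0539). Both subunits rose, and HADHB stood at 0.344 and 0.381 of HADHA in shGLUD1, below the 0.456 and 0.458 of shNT.

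HADHA and HADHB lie head to head on chromosome 2 and are read in opposite directions, with 306 bases between their RefSeq starts (GRCh38.p14, 26244632 and 26244939; models in GENCODE reach past these starts, and share no exon bases). The stretch that falls in both promoter windows, 194 bases at chr2:26244689-26244882, is shown because both genes rose and share it; it is written 5′ to 3′ on the plus strand, from RefSeq, with 68.6% G and C. It was searched on both strands for the CCAAT box and for the pentamers ACGTG and also GCGTG, and it holds none of them, so no letter is in capitals.
HADHA-HADHB: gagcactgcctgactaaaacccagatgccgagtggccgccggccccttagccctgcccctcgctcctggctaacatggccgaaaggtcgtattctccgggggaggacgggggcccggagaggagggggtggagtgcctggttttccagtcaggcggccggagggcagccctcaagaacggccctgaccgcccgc

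HADH, the short-chain hydroxyacyl-CoA dehydrogenase, was at 26.5 and 38.7 TPM in shGLUD1, against 19.9 and 18.2 TPM in shNT, and rose by 0.72 (adjusted p = 0.00522; 0.0724 in the unfiltered fit), while rescaled it stood at -0.01. ECI1, the isomerase that moves the double bond of unsaturated chains into reach of the pathway, was at 70.2 and 61.6 TPM in shGLUD1, against 53.7 and 56.1 TPM in shNT. Its change of 0.26 did not pass on TPM (adjusted p = 0.0825) but did with length and GC trends removed (0.63, 0.000703) or without shGLUD1 replicate 2 (0.35). Rescaled, ECI1 was lower (-0.49, adjusted p = 0.021), except without shGLUD1 replicate 2 (-0.29, 0.0909) or shNT replicate 2 (-0.47, 0.066).

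Electrons from the dehydrogenases leave through the electron transfer flavoprotein, made of ETFA and ETFB, and its oxidoreductase ETFDH, which passes them to ubiquinone. ETFDH (chromosome 4, GRCh38 158672125 to 158709623, plus strand) was at 7.34 and 8.82 TPM in shGLUD1, against 1.27 and 1.15 TPM in shNT, 6.68 times the shNT mean. It had the largest change of all members, 2.03 (SE 0.23, limma adjusted p = 4.98e-05), rescaled 1.48 (SE 0.18, adjusted p = 0.000452), and passed both with each library left out. Its exons share 131 bases with C4orf46, which starts 130 bases away on the other strand (2.2 and 3.46 TPM in shGLUD1, against 0.63 and 1.13 TPM in shNT), and 490 bases with PPID (12.7 and 16.0 TPM in shGLUD1, against 5.33 and 6.77 TPM in shNT), so the split of reads among them is uncertain.

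The flavoprotein subunits also rose on TPM. ETFA was at 86.3 and 99.3 TPM in shGLUD1, against 54.0 and 57.9 TPM in shNT, and rose by 0.72 (adjusted p = 0.000455). ETFB, the most abundant of the 38, was at 508 and 495 TPM in shGLUD1, against 379 and 339 TPM in shNT, and rose by 0.48 (adjusted p = 0.00113). Rescaled, neither passed (-0.04 and -0.28). Under quantile normalization both were higher (0.34, limma adjusted p = 0.0303, for ETFA and 0.50, 0.00376, for ETFB). The ratio of ETFB to ETFA overlapped between groups, at 5.89 and 4.99 in shGLUD1 and 7.01 and 5.86 in shNT.

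**Figure D3:**
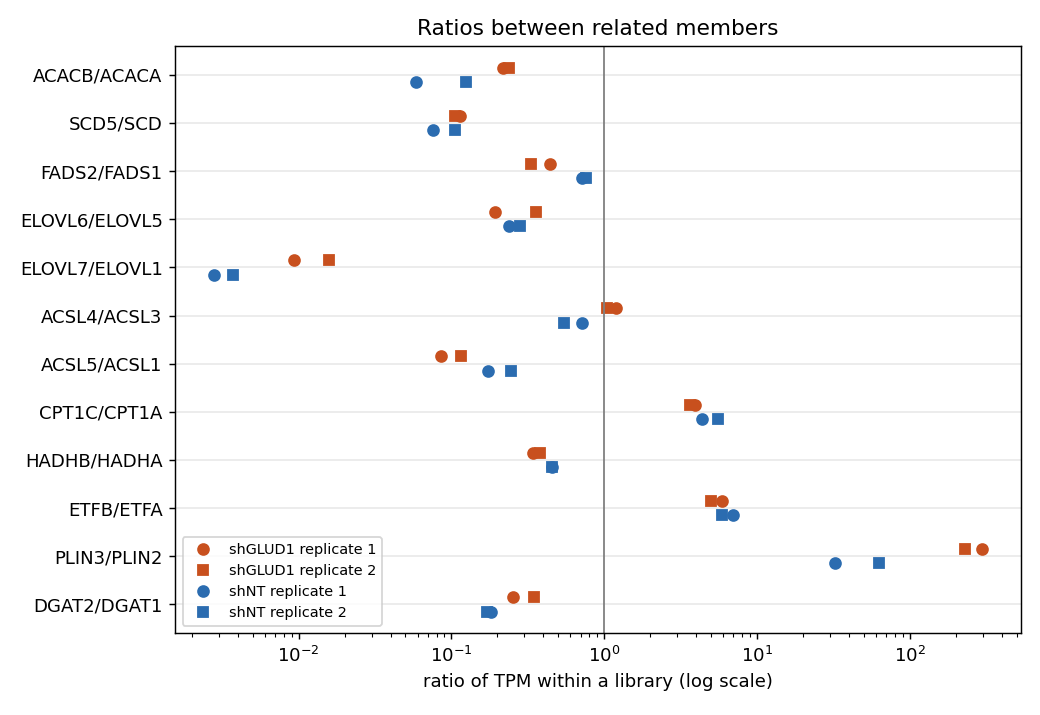
Ratio of TPM between related members within each library (log axis), for the 2 shGLUD1 libraries (orange) and the 2 shNT libraries (blue). PLIN3 was at 297 and 229 times PLIN2 in shGLUD1, against 32.5 and 63 times in shNT, and ACSL4 was above ACSL3 in both shGLUD1 libraries and below it in both shNT libraries.

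In the storage class 5 of the 7 genes tested rose and 2 did not pass (71.4% higher, beside 56.7% of all genes), and CD36 was below the filter. Rescaled, 1 was higher and 2 lower (14.3% and 28.6%, beside 23.2% and 27.9% of all genes). The droplet coat genes stood at opposite ends. PLIN3, a cytosolic perilipin that moves onto nascent droplets, was at 226 and 245 TPM in shGLUD1, against 91.7 and 84.4 TPM in shNT. It rose by 1.41 (SE 0.10, limma adjusted p = 4.07e-06) and was higher rescaled (0.65, SE 0.11, adjusted p = 0.00195), also with each library left out. PLIN2, the perilipin that coats droplets in most cells, was at 0.76 and 1.07 TPM in shGLUD1, against 2.82 and 1.34 TPM in shNT. The groups did not overlap, but the shNT libraries lay far apart and the change of -0.65 did not pass on TPM (SE 0.29, adjusted p = 0.0708).

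PLIN2 did pass in other fits: lower rescaled (-1.08, SE 0.28, limma adjusted p = 0.0127), with the replicate block (-0.65, 0.0302) and with length and GC trends removed (-0.64, 0.047). The block kept the change and left the SE near that of the main fit (0.28, against 0.29). Its adjusted p-values were smaller by far (for HADHA 1.04e-26, against 6.37e-06), so that call reflects how p was computed and no clearer difference. Without shNT replicate 2 the PLIN2 change was -1.0. The rescaled call was lost without shGLUD1 replicate 1 (-0.99, 0.0759), shGLUD1 replicate 2 (-1.08, 0.0666) or shNT replicate 1 (-0.72, 0.0628). At these low levels single reads may weigh on the value, and the files do not give their number.

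The 250 bases before the RefSeq start of each perilipin are shown because their ratio differed most among the pairs compared, 2.53 log2 units higher for PLIN3 over PLIN2 in shGLUD1; capitals mark the same box and pentamers on either strand. They lie at chr19:4867668-4867917 for PLIN3 and chr9:19127493-19127742 for PLIN2 (GRCh38.p14, minus strand, written 5′ to 3′).
PLIN3: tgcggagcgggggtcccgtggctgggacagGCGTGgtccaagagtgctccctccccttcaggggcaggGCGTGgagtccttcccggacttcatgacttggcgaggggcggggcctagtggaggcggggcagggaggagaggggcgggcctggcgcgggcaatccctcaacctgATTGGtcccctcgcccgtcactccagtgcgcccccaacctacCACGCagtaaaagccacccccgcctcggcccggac
PLIN2: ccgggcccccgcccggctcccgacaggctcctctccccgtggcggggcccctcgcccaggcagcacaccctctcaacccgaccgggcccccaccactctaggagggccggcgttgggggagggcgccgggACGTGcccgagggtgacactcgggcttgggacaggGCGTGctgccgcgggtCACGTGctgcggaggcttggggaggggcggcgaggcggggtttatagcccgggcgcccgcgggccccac

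PLIN2 holds 3 matches to ACGTG and 1 to GCGTG, which are forms of the core bound by hypoxia-inducible factors; 2 of the ACGTG matches overlap as both strands of CACGTG. PLIN3 holds 3 matches to GCGTG and 1 to CCAAT, none to ACGTG. Of 38 members 33 matched by symbol, with 56 windows in all. The motif ACGTG was in 16.1% of these and in 18.5% of all 35116 RefSeq windows of the same length. The motif GCGTG was in 44.6% of the members' windows and 32.2% of all. The CCAAT box was in 32.1% and 32.0%. The palindrome CACGTG, which contains ACGTG, was in 3.57% and 6.34%. FASN, ETFDH, HILPDA, DGAT1 and DGAT2 were not matched. The sterol regulatory motif TCACNCCAC was found in 2 of the 56, one each for ACSL1 and PNPLA2, and in 0.883% of all windows. A match describes letters only and shows no binding.

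Genes of triglyceride synthesis and breakdown gave 4 that rose and 1, DGAT1, that did not pass, where 56.7% of all genes tested rose. HILPDA, a hypoxia-induced droplet protein that inhibits the lipase PNPLA2, was at 21.3 and 20.9 TPM in shGLUD1, against 12.0 and 10.0 TPM in shNT, and rose by 0.88 (SE 0.17, adjusted p = 0.00102; rescaled 0.17, 0.376). PNPLA2, adipose triglyceride lipase, was at 68.6 and 74.0 TPM in shGLUD1, against 39.9 and 43.5 TPM in shNT, and rose by 0.76 (SE 0.12, adjusted p = 0.000339; rescaled 0.01). Both kept their TPM calls with each library left out.

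DGAT1 and DGAT2 are unrelated enzymes that both add the last acyl chain of triglyceride. DGAT1 had 28.4 and 25.5 TPM in shGLUD1 and 26.4 and 30.5 TPM in shNT, overlapping on TPM (-0.07, adjusted p = 0.667) and lower rescaled (-0.81, SE 0.15, adjusted p = 0.00281), the rescaled call also with each library left out. DGAT2 was at 7.18 and 8.89 TPM in shGLUD1, against 4.78 and 5.21 TPM in shNT, and rose by 0.59 (SE 0.21, adjusted p = 0.032; rescaled -0.07). That call was lost without shGLUD1 replicate 2 (0.45, 0.105), shNT replicate 1 (0.53, 0.227) or shNT replicate 2 (0.64, 0.138) and in the unfiltered fit (0.0722). The DGAT2 to DGAT1 ratio was 0.253 and 0.349 in shGLUD1, above the 0.181 and 0.171 of shNT. Exons of DGAT1 share 139 bases with HSF1 on the other strand, so the split of reads between them is uncertain. HSF1 was at 89.5 and 84.8 TPM in shGLUD1, against 64.5 and 67.7 TPM in shNT.

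LPIN1, a phosphatidate phosphatase that makes diacylglycerol, was at 2.05 and 2.6 TPM in shGLUD1, against 0.89 and 1.28 TPM in shNT, and rose by 0.67 (SE 0.25, adjusted p = 0.0365; rescaled 0.21). Its call was lost without shGLUD1 replicate 2 (0.56, 0.0984), shNT replicate 1 (0.54, 0.249) or shNT replicate 2 (0.81, 0.0771), in the unfiltered fit (0.107) and with length and GC trends removed (0.33, 0.22). CD36, a fatty acid uptake receptor, was listed at 0 in all libraries but shNT replicate 1 (0.04 TPM).

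Other genes of the same steps were read as 5 lists of 120 genes, all in the table, of which 86 were tested; 58 rose and 4 fell on TPM (67.4% and 4.65%, beside 56.7% and 7.77% of all genes) and, rescaled, 19 were higher and 23 lower (22.1% and 26.7%, beside 23.2% and 27.9%). Among suppliers and elongation partners 7 of 13 rose and 1 fell (53.8% and 7.69%), and rescaled 2 were higher and 4 lower (15.4% and 30.8%). HACD2, a dehydratase of the elongation cycle listed as PTPLB, MID1IP1, an activator of acetyl-CoA carboxylase, and CBR4, a reductase of mitochondrial fatty acid synthesis, rose (1.69, 1.34 and 1.06; rescaled 1.11, 0.60 and 0.50, the last not passing). SLC25A1, the mitochondrial citrate carrier that feeds ACLY and was named after its values were seen, was at 100.1 and 102 TPM in shGLUD1, against 46.1 and 54.1 TPM in shNT (1.00, adjusted p = 6.13e-05; rescaled 0.25, 0.134). FADS3, of the same family and chromosome as FADS1 and FADS2, was the 1 that fell, with 54.9 and 54.9 TPM in shGLUD1 against 88.0 and 92.7 TPM in shNT (-0.71, adjusted p = 0.000311; rescaled -1.46), and it too was named after its values were seen.

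Genes of activation, uptake and binding were the list with the lowest median, -0.39 relative to all genes. Of 13 tested, 6 rose and 3 fell on TPM (46.2% and 23.1%, beside 56.7% and 7.77% of all genes), and rescaled 2 were higher and 6 lower (15.4% and 46.2%, beside 23.2% and 27.9%). SLC27A5, of this list and named after its values were seen, was at 56.8 and 46.1 TPM in shGLUD1, against 83.2 and 91.7 TPM in shNT. Its change was -0.76 (limma adjusted p = 0.000563), and rescaled -1.51, so the rise of the ACSL genes did not extend to every gene of activation. FABP3, a cytosolic fatty acid carrier, fell to 0.34 and 2.11 TPM in shGLUD1, against 4.94 and 6.5 TPM in shNT (-1.71, SE 0.36, adjusted p = 0.00187; 0.0681 in the unfiltered fit; rescaled -2.22). ACBD3, a Golgi protein with an acyl-CoA binding domain, and ACOT9, a mitochondrial thioesterase, rose (1.41 and 1.23; rescaled 0.79 and 0.49). The ACBD3 rescaled call was lost without shGLUD1 replicate 2 (0.56, 0.106) and that of ACOT9 without shNT replicate 2 (0.42, 0.0648).

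Of 25 further oxidation genes 18 rose and none fell on TPM (72.0% higher, beside 56.7% of all genes), and rescaled 5 were higher and 5 lower (20.0% each, beside 23.2% and 27.9%). ECI2, a second enoyl-CoA isomerase, was at 34.0 and 47.3 TPM in shGLUD1, against 7.6 and 7.72 TPM in shNT, and rose by 2.25 (SE 0.18, adjusted p = 7.12e-06; rescaled 1.53). Its partner in function ECI1, above, had a TPM change of 0.26. ACAA2, the mitochondrial thiolase, was at 37.7 and 49.9 TPM in shGLUD1, against 11.8 and 14.3 TPM in shNT (1.66, adjusted p = 2.82e-05; rescaled 0.94), and ACOX3, a peroxisomal acyl-CoA oxidase, was at 18.0 and 18.6 TPM against 5.01 and 5.98 TPM (1.58, adjusted p = 5.7e-05; rescaled 0.89).

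Among glycerolipid, droplet and lipolysis genes 14 of 17 rose, none fell (82.4% higher, beside 56.7% of all genes), and rescaled 5 were higher and 3 lower (29.4% and 17.6%, beside 23.2% and 27.9%). The list median lay 0.33 above that of all genes. SOAT1, which esterifies cholesterol for storage in droplets, was at 16.6 and 23.2 TPM in shGLUD1, against 4.72 and 5.61 TPM in shNT (1.75, adjusted p = 6.2e-05; rescaled 1.06). LIPE, hormone-sensitive lipase, was at 11.9 and 13.1 TPM in shGLUD1, against 3.82 and 3.39 TPM in shNT (1.55, adjusted p = 0.000109; rescaled 0.89), and LPIN2 rose by 1.45 (rescaled 0.95, not passing without shGLUD1 replicate 2 at 0.76, 0.0557). The other perilipin genes, PLIN1, PLIN4 and PLIN5, were at or below 0.04 TPM.

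Of 18 regulators tested 13 rose and none fell on TPM (72.2% higher, beside 56.7% of all genes). Rescaled, 5 were higher and 5 lower (27.8% each, beside 23.2% and 27.9%). The 5 lower ones were NR1H3 (-0.88), ESRRA (-0.62), MLXIP (-0.57), MLX (-0.40) and SCAP (-0.40). Of these, NR1H3 and MLXIP were also lower under quantile normalization (-0.67 and -0.69). SREBF1, the sterol regulatory element-binding protein gene that drives synthesis genes, was at 35.2 and 30.7 TPM in shGLUD1, against 15.1 and 17.8 TPM in shNT, and rose by 0.96 (adjusted p = 0.000385; rescaled 0.23, 0.259). PPARD and PPARA, nuclear receptors that drive oxidation genes, rose (1.43 and 1.07), and rescaled only PPARD passed (0.82, adjusted p = 0.00571, against 0.45 for PPARA, 0.0977); PPARA lost its TPM call without shNT replicate 1 (0.85, 0.0585). HIF1A was at 33.7 and 46.5 TPM in shGLUD1, against 9.0 and 8.84 TPM in shNT (2.03, adjusted p = 1.17e-05; rescaled 1.32), and EPAS1, which encodes the HIF-2 alpha subunit, was at 21.3 and 26.1 TPM against 8.86 and 8.96 TPM (1.31, adjusted p = 0.000111; rescaled 0.60).

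**Figure D4:**
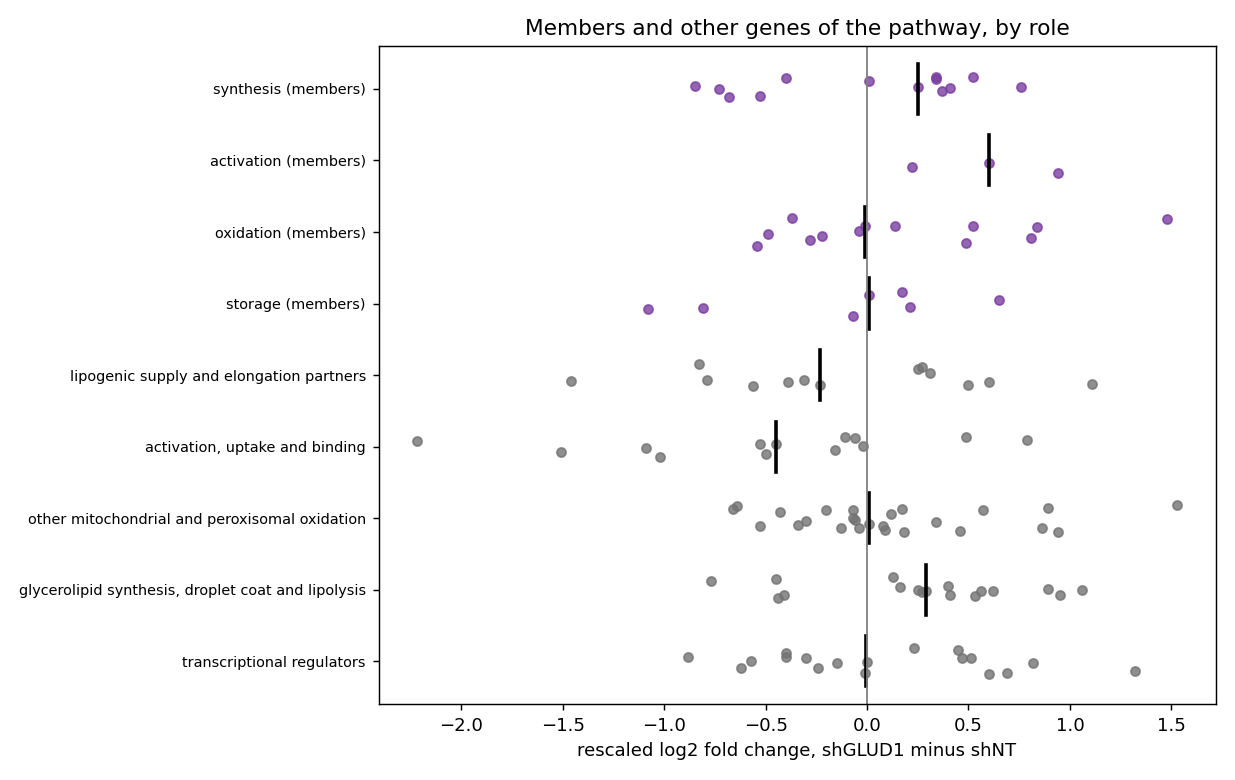
Rescaled log2 fold change (shGLUD1 minus shNT) of each tested member (purple, by class) and of other genes of the pathway (grey, by list); points are jittered vertically and black bars are medians. The median is 0.60 for activation members and -0.45 for the activation, uptake and binding list, with both directions present in every group but the activation members.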

How the data were processed

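Total RNA (1 µg a library) went into TruSeq V2 library preparation, per the labels' protocols. The authors deposited 1 table of TPM for 57820 genes in 4 libraries, scaled within each library; the submitters' processing notes list Bowtie 0.12.2, hg38 and mm8 with no role, and its quantifier and annotation were not given in the sources. Depth is unknown. Genes averaging 1 TPM or more were fitted as log2(TPM + 1) with limma 3.58.1 in R 4.3.3 (group alone in the model, variance trend on), and p-values were adjusted by Benjamini-Hochberg over all 12524 genes, two-sided. Limma borrows spread across genes (median prior 8.8 degrees of freedom); an exact permutation of 2 against 2 cannot give p below 0.333.

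Median-ratio factors were 0.29 and 0.50 (log2) for shGLUD1 and -0.38 and -0.37 for shNT. Coordinates, exons, lengths and GC content came from GENCODE release 29 (97.9% of genes; ACACA had no match), promoters from RefSeq (GRCh38.p14), tables from Python 3.11.15 with pandas 2.3.3. Alternatives were a pseudocount of 0.1 TPM, no filter, a minimum mean of 5 TPM, rescaling, quantile normalization, no variance trend, the replicate block, each library left out, and length and GC trends removed; leaving libraries out of, or blocking, the rescaled fit was chosen after seeing the data. Members and lists were chosen with earlier results of these data known. Libraries' values are given for the largest changes of each class, members passing in opposite directions and members with a log2 fold change below 0. They are also given for compared pairs and members below the filter. Of each list up to 3 passing genes are named, and of the regulators any gene tested could be named. Older symbols were matched by gene identifier.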

Additional observations from a re-analysis of the deposited data

How the results depend on the processing

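Members called higher numbered 28, against 10 after median-ratio rescaling and 12 under quantile normalization; those called lower numbered 0, against 9 and 5, and 1 with the replicate block or with length and GC trends removed. With each library left out in turn, 22 to 28 were higher and 0 to 1 lower on TPM, and 4 to 8 higher and 4 to 7 lower on rescaled values. Of the calls, 20 of 28 on TPM and 6 of 19 rescaled (ELOVL5, ACSL4, HADHA, ETFDH, PLIN3 and DGAT1) were kept in all 4 such fits. FASN (0.60), SCD (0.43), ETFA (0.34), ETFB (0.50) and PNPLA2 (0.34) were higher under quantile normalization but did not pass rescaled. ELOVL7 (0.57), ACSL1 (0.47) and ACADM (0.43) were higher rescaled but did not pass under quantile normalization. Among other pathway genes, 19 were higher and 23 lower rescaled, and 24 and 13 under quantile normalization. Of all genes, 2910 were higher and 3491 lower rescaled, 2938 and 2764 under quantile normalization, and 4676 higher with a minimum mean of 5 TPM, where fewer genes were tested.

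Class medians relative to all genes were 0.62 (synthesis), 1.03 (activation), 0.53 (oxidation) and 0.48 (storage) without a filter, where low genes lower the median of all genes; synthesis was at -0.01 with a minimum mean of 5 TPM, and activation at 0.30 with length and GC trends removed. Oxidation was at 0.01 with a pseudocount of 0.1 TPM, -0.01 rescaled and 0.31 under quantile normalization, and 0.08 to 0.22 with a library left out. Storage ranged from -0.08 to 0.13 with a library left out. Signs turned after rescaling for ACACA (-0.68), FADS2 (-0.53), ELOVL1 (-0.40), CPT1C (-0.22), ACADS (-0.37), ACADVL (-0.54), HADH (-0.01), ECI1 (-0.49), ETFA (-0.04), ETFB (-0.28) and DGAT2 (-0.07). This follows from the median-ratio factors, which lower every shGLUD1 value relative to shNT. Under quantile normalization signs turned for ACACA (-0.72), FADS2 (-0.58), CPT1C (-0.05), ACADS (-0.19), ECI1 (-0.15) and DGAT2 (-0.19). Without shGLUD1 replicate 1 they turned for ELOVL5 (0.11) and ELOVL6 (0.54). Without shGLUD1 replicate 2 they turned for ACACA (-0.03) and DGAT1 (0.00063). Without shNT replicate 2 they turned for ACACA (-0.24), ELOVL6 (0.08) and DGAT1 (0.03). With a library left out these ranged from -0.24 to 0.26 for ACACA, -0.34 to 0.11 for ELOVL5, -0.66 to 0.54 for ELOVL6 and -0.18 to 0.03 for DGAT1. With 1 TPM added to both genes, the log2 differences in ratio were 0.80 for ACACB/ACACA, -0.02 for SCD5/SCD and 0.80 for ELOVL7/ELOVL1, against 1.41, 0.30 and 1.92.

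The shared replicate numbers are no stated pairing: deviations of same-numbered libraries correlated at 0.0393 across genes. With the replicate block 28 members were higher and 1 lower, and 11 higher and 10 lower rescaled. Among members it changed the call of PLIN2 (-0.65) and no other on TPM. The PLIN2 SE hardly moved (0.28, against 0.29), so that call reflects how p was computed. TPM give no depth, which limits the reading of genes near 1 TPM such as PLIN2, ELOVL7, ACACB and LPIN1.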
